A study of Mus musculus with 65 samples.

Results

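LDB1 sites that carried cohesin but neither CTCF nor YY1 were examined in G1E-ER4 cells, a mouse erythroblast line. The sites were chosen by peak overlap, as untreated LDB1 peaks of LDB1-AID cells that shared at least 1 bp with a RAD21 peak and none with a CTCF or YY1 peak of the same cells. The rule found 1369 sites, called joint sites here, among 10729 LDB1 peaks on chromosomes 1 to 19 and X (12.8%). Because chromatin immunoprecipitation followed by sequencing (ChIP-seq) of LDB1, RAD21, CTCF and YY1 in these untreated cells chose the sites, the count and the overlap are a description and carry no test.

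The LDB1-AID subline carries LDB1, and the SMC3-AID subline SMC3, fused to an auxin-inducible degron, so that adding auxin leads to degradation of the fused protein. Each subline was left untreated or was given auxin for 4 h. For LDB1-AID cells the authors' peak sets each combined 2 replicates and covered LDB1, RAD21, CTCF and YY1 without auxin and LDB1 with auxin. For SMC3-AID cells the sets each combined 3 replicates and covered LDB1 and RAD21 without and with auxin. G1E-ER4 cells lack functional endogenous GATA1 and carry an inducible form of it. Whether that form was active during collection, and whether each subline is a single clone, is not given in the sources used here. Every peak was a 400 bp interval without a height or a score, so read depth is unknown and no replicate error can be given.

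LDB1 is a cofactor without a DNA-binding domain of its own. In erythroid cells the GATA1-TAL1-LMO2 complex brings it to enhancers, and its self-association can hold distant enhancers and promoters together. RAD21 and SMC3 are subunits of cohesin, the ring complex that forms chromatin loops and accumulates where CTCF, a zinc finger DNA-binding protein, blocks its movement. YY1 is a zinc finger protein found at many active promoters and enhancers.

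The joint sites made up the largest class of LDB1 peaks with RAD21. Of 2697 such peaks, 1369 had neither CTCF nor YY1, 791 had YY1 without CTCF, and 537 had CTCF, of which 175 also had YY1. Among all LDB1 peaks, 6593 had none of RAD21, CTCF and YY1 (LDB1 alone) and 1182 had YY1 only. Seen from cohesin, 1373 RAD21 peaks touched a joint site, which was 4.14% of the 33160 RAD21 peaks. Among the 4458 RAD21 peaks without CTCF or YY1, 1274 lay at a joint site (28.6%) and 3132 had no LDB1 peak.

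LDB1 and RAD21 peaks at the joint sites lay nearly on top of each other. The distance between their centres had a median of 72 bp, with a middle range of 32 to 144 bp (lower to upper quartile), and was within 100 bp at 843 sites (61.6%). At LDB1 peaks with RAD21 and YY1 the median was 78 bp, and 61.9% lay within 100 bp. At LDB1 peaks with RAD21 and CTCF the median was 119 bp, and 43.2% lay within 100 bp. The overlap required by the rule limits this distance to less than a peak width, so these values are given without a test.

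**Figure D1:**
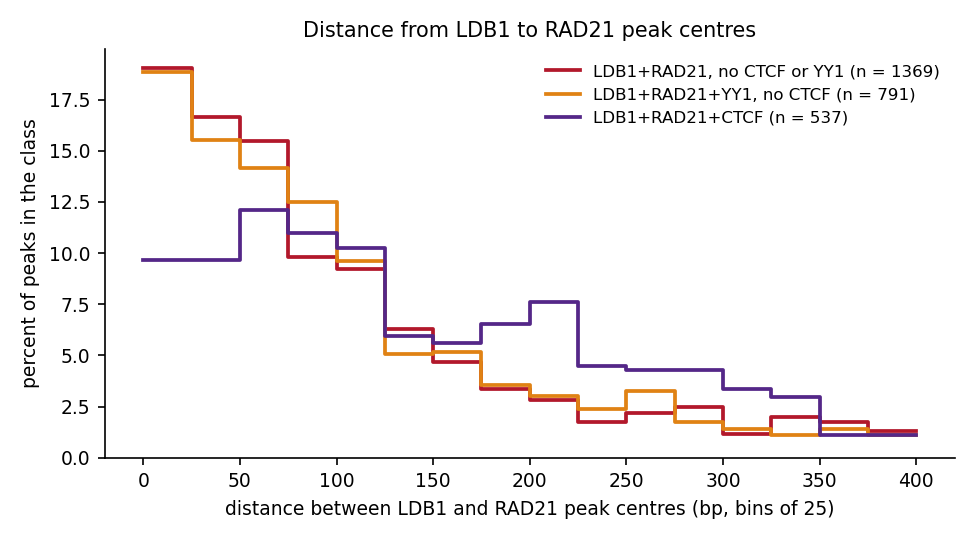
Distance in bp between the centres of LDB1 and RAD21 peaks, in bins of 25 bp, as a percent of the peaks in each class. The curves of the joint sites and of the sites with YY1 fall from a maximum at 0 bp, and the sites with CTCF spread further out (median 119 bp against 72 bp).

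Few sites lay at the edge of the RAD21 overlap, but more lay close to a CTCF or YY1 peak. LDB1 and RAD21 peaks shared more than 200 bp at 1157 joint sites (84.5%) and at most 50 bp at 42. The smallest shared length was 2 bp. Just outside, 30 LDB1 peaks without CTCF or YY1 had a RAD21 peak at a gap of 50 bp or less. A CTCF or YY1 peak began within 100 bp of the LDB1 peak at 89 joint sites and within 1 kb at 369. At 99 joint sites (7.23%) the RAD21 peak itself reached a CTCF or YY1 peak beyond the LDB1 interval, with CTCF at 66 and YY1 at 35. The other 1270 sites had RAD21 peaks free of both proteins.

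The first question was whether LDB1 stayed at these sites once it was degraded. Most joint sites lost their LDB1 peak: 204 of 1369 were called again after auxin in LDB1-AID cells, which was 14.9% (Wilson 95% interval 13.1 to 16.9), and 1165 were not. Over all untreated LDB1 peaks 7.77% were called again. LDB1 alone peaks were called again in 203 of 6593 cases (3.08%, 2.69 to 3.52), and LDB1 peaks with RAD21 and YY1 in 229 of 791 (29%, 25.9 to 32.2). The joint sites thus lay between these classes, above LDB1 alone (odds ratio 5.51 with a 95% interval of 4.49 to 6.76, two-sided Fisher's exact test, adjusted p = 1.27e-54) and below the sites with YY1 (odds ratio 0.43, 0.347 to 0.532, Fisher's exact test, adjusted p = 6.10e-14). Peaks are not replicates, so these tests and all intervals here cover counting error between peak lists only.

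The same order held on single chromosomes. The share kept was higher at joint sites than at LDB1 alone peaks on 20 of 20 chromosomes, and lower than at sites with YY1 on 19 of 20. With RAD21 required in the SMC3-AID set too, which leaves 112 joint sites, the difference from sites with YY1 no longer passed (odds ratio 0.597, 0.346 to 1.03, Fisher's exact test p = 0.0741), while that from LDB1 alone was 13.1 (8.56 to 20.2). LDB1 alone peaks were not filtered in this setting, so the 13.1 compares selected sites with an unselected class.

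In comparisons that were not planned, joint sites were kept more often than LDB1 peaks with YY1 but no RAD21 (116 of 1182, 9.81%; odds ratio 1.61, 1.26 to 2.05, Fisher's exact test, adjusted p = 2.47e-04). Against LDB1 peaks with RAD21 and CTCF (65 of 537, 12.1%) the odds ratio was 1.27, with an interval from 0.943 to 1.71 that includes 1 (Fisher's exact test, adjusted p = 0.162). Of the 1043 LDB1 peaks called after LDB1 degradation, 205 lay at a joint site (19.7%), against a share of 12.8% among the untreated LDB1 peaks. Where LDB1 was kept, its centre lay a median of 37 bp from the untreated centre.

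**Figure D2:**
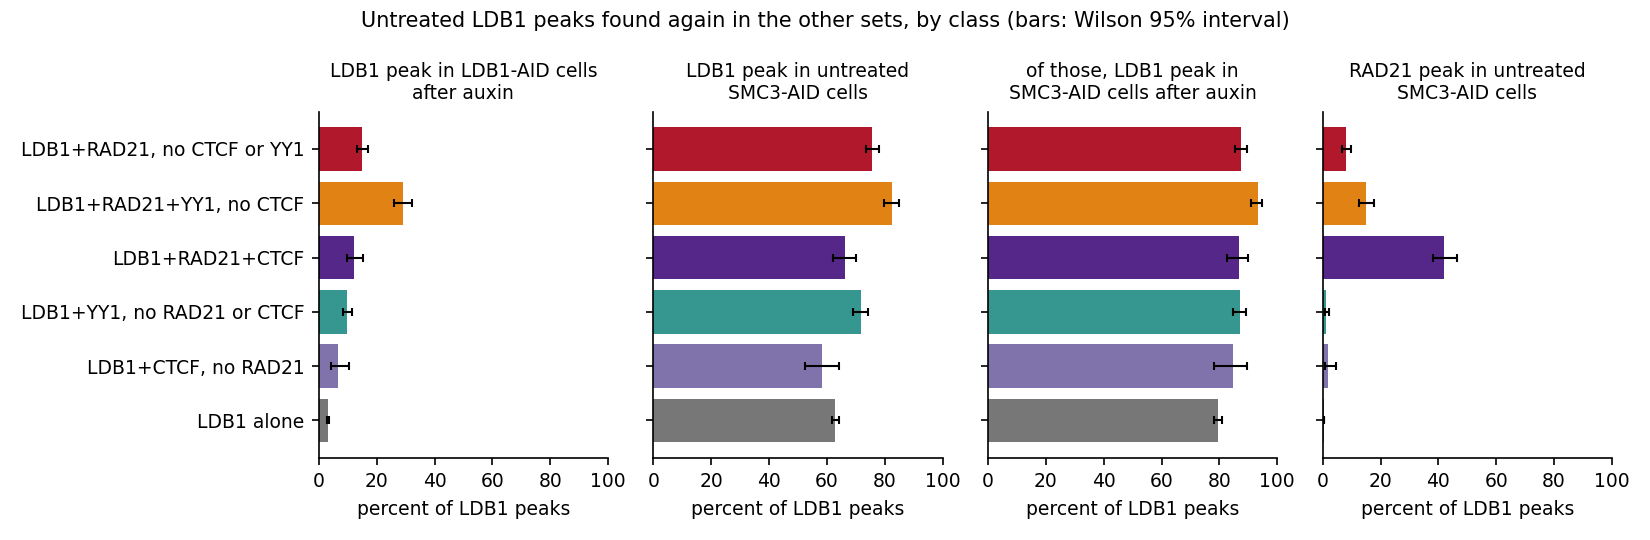
Percent of untreated LDB1 peaks of each class at which the named peak was found in another set, with Wilson 95% intervals as bars. Joint sites (top row) lie between LDB1 alone and LDB1 with RAD21 and YY1 in the 3 LDB1 panels, and well below LDB1 with RAD21 and CTCF in the RAD21 panel (8.18% against 42.1%).

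The untreated SMC3-AID cells gave a second look at both proteins. LDB1 was found there at 1037 of 1369 joint sites (75.7%, Wilson 95% interval 73.4 to 77.9), against 67% of all LDB1 peaks. This was above LDB1 alone (4149 of 6593, 62.9%; odds ratio 1.84, 1.61 to 2.1, Fisher's exact test, adjusted p = 1.36e-19) and below the sites with YY1 (653 of 791, 82.6%; odds ratio 0.66, 0.529 to 0.824, exact test, adjusted p = 4.18e-04). With RAD21 required in both sublines the odds ratio was 6.01 (3.13 to 11.5) against LDB1 alone and 0.355 (0.108 to 1.17, Fisher's exact test p = 0.0991) against the sites with YY1, which did not pass. LDB1 alone peaks were not filtered there, so the 6.01 compares sites already chosen by a peak in SMC3-AID cells with an unselected class. The LDB1 centres of the sublines lay a median of 26 bp apart at joint sites.

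RAD21 was found far less often. Of the 1369 joint sites, 112 had a RAD21 peak in untreated SMC3-AID cells (8.18%, 6.84 to 9.75), against 16.9% of all LDB1 peaks with RAD21 and 43.4% of all RAD21 peaks of LDB1-AID cells. It was found at 119 of 791 sites with YY1 (15%; odds ratio 0.503, 0.382 to 0.662, Fisher's exact test, adjusted p = 3.33e-06) and at 226 of 537 sites with CTCF (42.1%; odds ratio 0.123, 0.0947 to 0.159, adjusted p = 3.75e-60). LDB1 alone peaks, which had no RAD21 in LDB1-AID cells, gave 27 of 6593 (0.41%). The SMC3-AID RAD21 set was the smaller, with 15223 peaks against 33160, and whether depth, calling or occupancy set this difference was not tested. The presence of RAD21 at 1257 of the 1369 joint sites therefore rests on a single subline.

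Among RAD21 peaks without CTCF or YY1, those at joint sites were found in SMC3-AID cells less often than those without LDB1, at 92 of 1274 (7.22%) against 500 of 3132 (16%; odds ratio 0.41, 0.325 to 0.517, Fisher's exact test, adjusted p = 4.15e-15). Joint sites with a CTCF peak within 1 kb had SMC3-AID RAD21 more often, at 24 of 135 (17.8%) against 88 of 1234 (7.13%; odds ratio 2.82, 1.72 to 4.6, Fisher's exact test, adjusted p = 2.31e-04). SMC3-AID RAD21 was at 20 of the 99 sites whose RAD21 peak itself reached CTCF or YY1 (20.2%), against 92 of the other 1270 (7.24%). Among these 1270, chosen after seeing the data, the split by CTCF within 1 kb gave 9 of 65 (13.8%) against 83 of 1205 (6.89%; odds ratio 2.17, 1.04 to 4.55, Fisher's exact test, unadjusted p = 0.0464). For CTCF within 10 kb the odds ratio over all joint sites was 1.46, with an interval from 0.975 to 2.17 (Fisher's exact test, adjusted p = 0.106). These splits were not planned.

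The next question was whether LDB1 peaks at the joint sites stayed after SMC3 degradation. After auxin the RAD21 set of SMC3-AID cells held only 24 peaks on these chromosomes, and 0.0186% of all LDB1 peaks had one. Only the 112 joint sites with RAD21 in untreated SMC3-AID cells could lose it there. Of these, 0 of 112 had it after auxin, which allows a share of up to 3.32% (upper Wilson 95% limit). LDB1 stayed at most sites: of the 1037 joint sites with LDB1 in untreated SMC3-AID cells, 908 had it after SMC3 degradation (87.6%, Wilson 95% interval 85.4 to 89.4) and 129 did not. The share over all such LDB1 peaks was 83.3%. The share not found after SMC3 degradation was 12.4%, while 332 joint sites (24.3%) had no LDB1 peak in untreated SMC3-AID cells in the first place. At 36 of those 332 sites an LDB1 peak was called after auxin. Of the 1037 joint sites with LDB1 in untreated SMC3-AID cells, 935 had no RAD21 peak there. A loss of cohesin could not be seen at these 935, so the 87.6% does not show whether LDB1 needed cohesin. The comparisons with other classes below share this limit.

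LDB1 was kept after SMC3 degradation more often at joint sites than at LDB1 alone peaks (3301 of 4149, 79.6%; odds ratio 1.81, 1.48 to 2.21, Fisher's exact test, adjusted p = 4.34e-09). With RAD21 required in both sublines this odds ratio was 4.98 (2.02 to 12.3), again with LDB1 alone peaks not filtered. LDB1 was kept less often at joint sites than at sites with YY1 (609 of 653, 93.3%; odds ratio 0.509, 0.356 to 0.727, Fisher's exact test, adjusted p = 2.73e-04). The difference from the sites with YY1 turned direction with RAD21 required in both sublines (1.26, 0.386 to 4.09, p = 0.773) and did not pass among peaks with no other LDB1 peak within 25 kb (0.676, 0.334 to 1.37, p = 0.31, Fisher's exact tests). Against LDB1 with YY1 but no RAD21 (739 of 848, 87.1%) the odds ratio was 1.04 with an interval from 0.79 to 1.36. Against LDB1 with RAD21 and CTCF (308 of 355, 86.8%) it was 1.07, from 0.751 to 1.54.

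The 112 joint sites with RAD21 in untreated SMC3-AID cells were also counted on their own. LDB1 was present at 102 of them before auxin and at 97 of these 102 after it (95.1%, 89 to 97.9). At the joint sites without SMC3-AID RAD21, 811 of 935 kept LDB1 (86.7%, 84.4 to 88.8). The odds ratio was 2.97 (1.18 to 7.43, Fisher's exact test, adjusted p = 0.0178) in a comparison that was not planned, and it rests on 5 lost peaks in the first group.

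The other sets can be read together as a fingerprint of each site. At 667 joint sites (48.7%) LDB1 was present in SMC3-AID cells without and with auxin, was lost after LDB1 degradation, and RAD21 was not called in SMC3-AID cells. A further 65 sites showed the same pattern with SMC3-AID RAD21. At 176 sites (12.9%) LDB1 was present in all 3 other LDB1 sets, and 32 of these also had SMC3-AID RAD21. At 273 sites (19.9%) no peak was called in any of the 4 other sets.

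**Figure D3:**
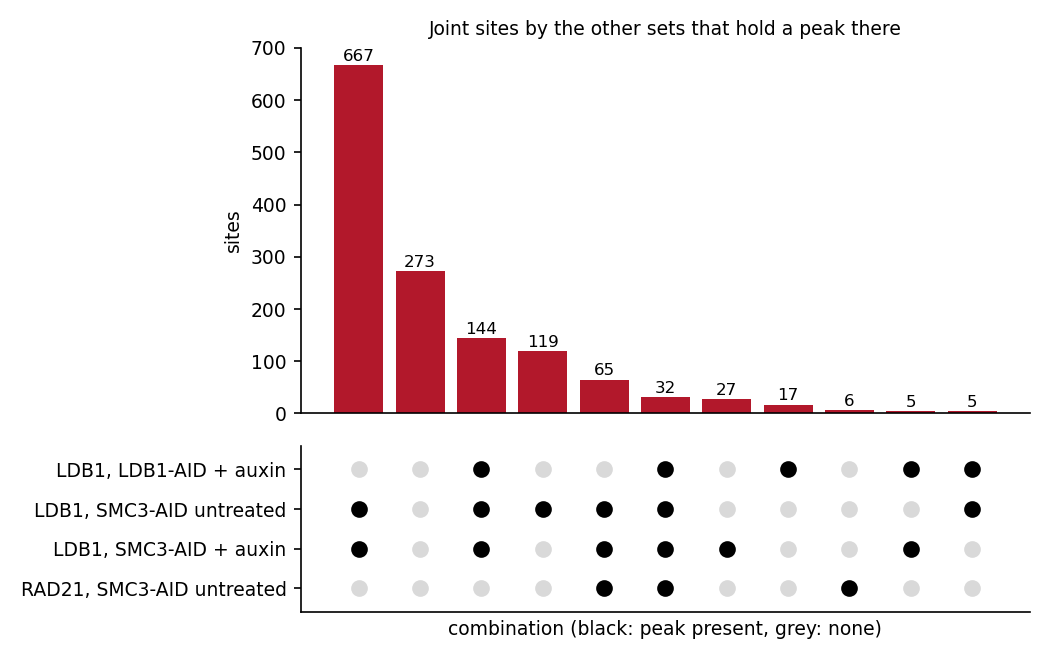
Number of joint sites for each combination of peaks in the 4 sets that the choice of sites did not use, for combinations of 5 or more sites. The tallest bar, 667 sites, is LDB1 in both SMC3-AID sets only, and the next, 273 sites, is a peak in none of the 4.

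Sites that kept LDB1 through one degradation kept it through the other more often. Among joint sites with LDB1 in untreated SMC3-AID cells, of those kept after LDB1 degradation 176 of 182 were kept after SMC3 degradation (96.7%), against 732 of 855 of those lost after LDB1 degradation (85.6%; odds ratio 4.93, 2.14 to 11.4, Fisher's exact test, adjusted p = 1.65e-05). Sites with SMC3-AID RAD21 were kept after LDB1 degradation in 33 of 112 cases (29.5%), against 171 of 1257 (13.6%; odds ratio 2.65, 1.71 to 4.11, Fisher's exact test, adjusted p = 9.19e-05). Sites with LDB1 in untreated SMC3-AID cells were kept in 182 of 1037 cases (17.6%), against 22 of 332 (6.63%; odds ratio 3, 1.89 to 4.76, Fisher's exact test, adjusted p = 1.08e-06). Among LDB1 peaks also found in untreated SMC3-AID cells, the odds ratio for joint sites against LDB1 alone after LDB1 degradation was 5.04 (4.04 to 6.3). None of the splits in this paragraph among joint sites was planned.

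Position relative to RAD21, CTCF or other LDB1 peaks was not shown to separate kept from lost joint sites after LDB1 degradation. The odds ratio of being kept was 0.961 (0.709 to 1.3) for LDB1 and RAD21 centres within 100 bp, 0.859 (0.615 to 1.2) for another LDB1 peak within 25 kb and 0.824 (0.612 to 1.11) for a CTCF peak within 10 kb (Fisher's exact tests, adjusted p = 0.834, 0.437 and 0.272). Each interval includes 1, so a difference within it could not be detected here. Centres within 100 bp did go with LDB1 being found in untreated SMC3-AID cells, at 659 of 843 (78.2%) against 378 of 526 (71.9%; odds ratio 1.4, 1.09 to 1.8, Fisher's exact test, adjusted p = 0.0156).

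Joint sites lay in the neighbourhood of other LDB1 peaks. The nearest other LDB1 peak was a median of 9.38 kb away, against 18 kb for LDB1 alone peaks. Another LDB1 peak lay within 25 kb at 1021 of 1369 joint sites (74.6%, Wilson 95% interval 72.2 to 76.8), against 62.3% of all LDB1 peaks and 3808 of 6593 LDB1 alone peaks (57.8%; odds ratio 2.15, 1.88 to 2.45, Fisher's exact test, adjusted p = 2.01e-31). The share was 76.1% at sites with YY1, with an odds ratio of 0.921 (0.751 to 1.13). In runs of 5 or more LDB1 peaks, each within 25 kb of the next, lay 315 joint sites (23%) and 13.3% of all LDB1 peaks.

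CTCF lay near joint sites slightly less often than near LDB1 alone peaks. The nearest CTCF peak lay a median of 8.5 kb away, with quartiles of 2.69 and 22.1 kb, against 7.35 kb for LDB1 alone. A CTCF peak lay within 10 kb at 754 joint sites (55.1%, 52.4 to 57.7), against 62.6% of all LDB1 peaks, which include those on CTCF, and 59.4% of LDB1 alone peaks (odds ratio 0.839, 0.746 to 0.944, Fisher's exact test, adjusted p = 0.00599). Against the sites with YY1 (58.9%) a difference was not shown (odds ratio 0.855, 0.716 to 1.02, Fisher's exact test, adjusted p = 0.12, not planned). The difference from LDB1 alone was not seen within 5 kb (0.973, 0.863 to 1.1). It turned direction for joint sites with RAD21 in both sublines (1.19, 0.804 to 1.75). The nearest RAD21 peak with CTCF, the kind of site at which cohesin-anchored loops usually end, was a median of 16.3 kb away. It was 14.2 kb for LDB1 alone and 13.7 kb for sites with YY1. The value for joint sites includes 66 whose own RAD21 peak overlapped CTCF. The nearest YY1 peak lay a median of 14.5 kb from joint sites, against 19.9 kb for LDB1 alone. These distances were not tested.

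**Figure D4:**
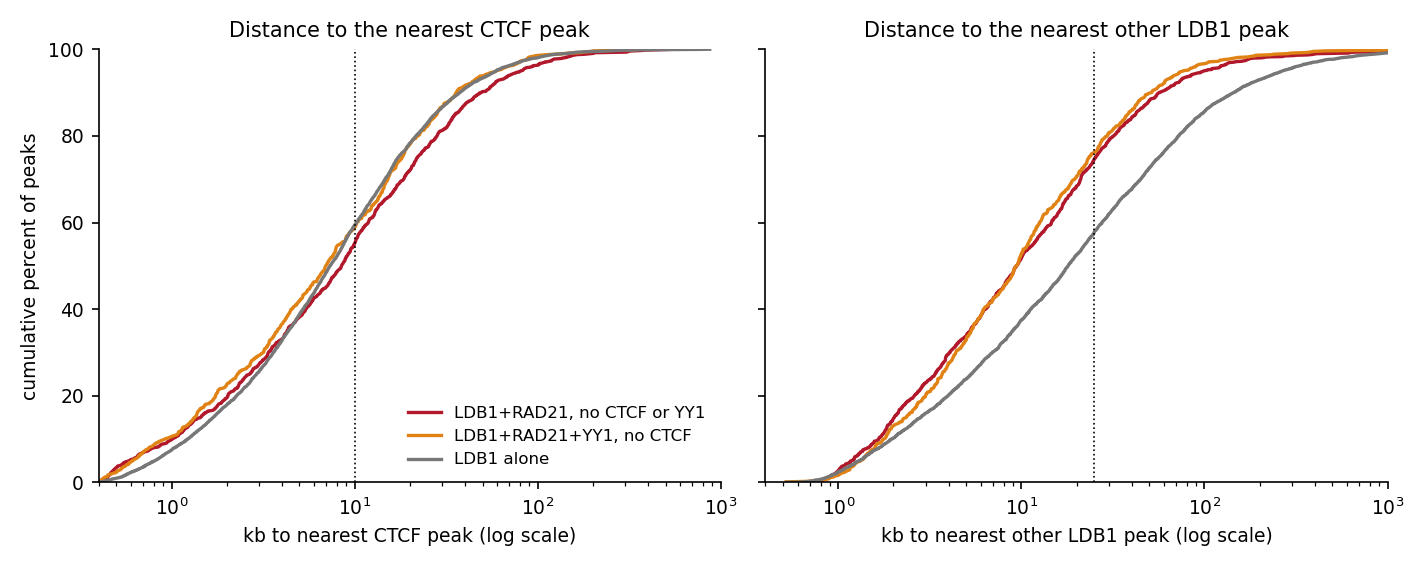
Cumulative percent of peaks by distance in kb (log scale) to the nearest CTCF peak (left) and to the nearest other LDB1 peak (right), with dotted lines at 10 kb and 25 kb. The curves nearly coincide on the left up to 10 kb, and on the right the joint sites follow the sites with YY1, to the left of LDB1 alone (medians 9.38 and 18 kb).

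Joint sites also lay near each other. Of the 1369 sites, 440 (32.1%) had another joint site within 25 kb, in 191 chains of 2 or more, of which 41 held 3 or more and 12 held 4 or more. Among the 249 adjacent pairs in these chains, 182 (73.1%) had no CTCF peak between them, at a median spacing of 8.18 kb. For pairs of sites with RAD21 and YY1 the share was 67.1% of 79 at a median of 8.3 kb, and for pairs of LDB1 alone peaks 64.2% of 1648 at 8.68 kb. The spacing differs between the classes and pairs share sites, so these shares were not tested.

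The chain with the most members held 6 joint sites over 51 kb (chr9:60215603-60266628, build mm9) and no other LDB1 peak. Its LDB1 centres lay between 4 and 87 bp from a RAD21 centre. A CTCF peak lay between the first 2 sites and no YY1 peak lay in the chain. The site at chr9:60247828-60248227 was the only one of the 6 at which LDB1 was called after LDB1 degradation, and the only one with SMC3-AID RAD21. Of the 6 sites, 5 had LDB1 in untreated SMC3-AID cells and 3 after SMC3 degradation.

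The next chain held 5 joint sites over 25.6 kb (chr13:96441545-96467188), again with no other LDB1 peak, and with 0 CTCF peaks and 1 YY1 peak inside it. Its first site (chr13:96441545-96441944) had LDB1 in all 3 other LDB1 sets and RAD21 in SMC3-AID cells. At the other sites LDB1 was lost after LDB1 degradation. In SMC3-AID cells LDB1 was called at 3 of the 5 sites without auxin and at 4 with it.

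A chain of 5 joint sites on chromosome 12 (chr12:78157757-78196672, 38.9 kb) was of another kind. It held 11 LDB1 peaks, 10 YY1 peaks and 3 CTCF peaks, and 6 of its LDB1 peaks belonged to other classes, among them 2 with RAD21 and YY1 and 2 LDB1 alone. Of its 5 joint sites, 2 kept LDB1 after LDB1 degradation, and none of the other 6 LDB1 peaks did. The remaining named chains, on chromosome 6 (chr6:123202803-123243302, 5 joint sites) and chromosome 9 (chr9:123896461-123912776, 4 joint sites), kept LDB1 at 1 and 0 of their joint sites after LDB1 degradation. Genes at these regions were not assigned, since no annotation of build mm9 was used here.

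**Figure D5:**
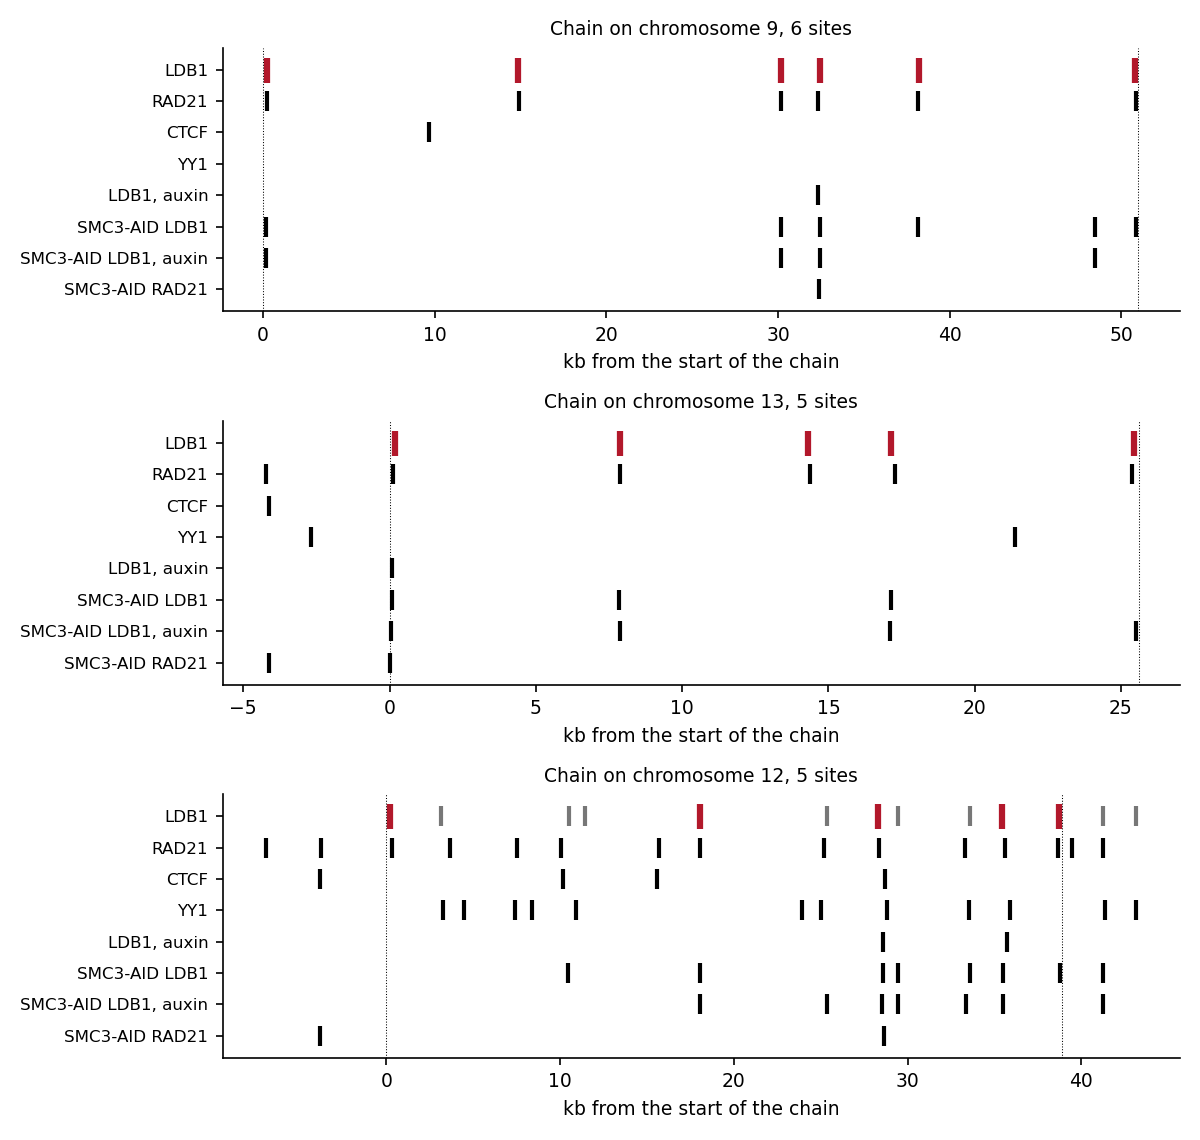
Peak centres in the 3 chains with the most joint sites, in kb from the start of each chain, 1 row per peak set. Red ticks are joint sites, grey ticks are other LDB1 peaks, and dotted lines mark the chain's ends. In the chains on chromosomes 9 and 13 every LDB1 peak of LDB1-AID cells is a joint site, whereas the chain on chromosome 12 mixes classes.

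The single sites with the most complete record were the 32 with a peak in all 4 other sets. Of these, the 5 with the closest LDB1 and RAD21 centres lay at chr12:47810911-47811310 (4 bp between centres), chr10:117501898-117502297 (13 bp), chr7:53605587-53605986 (14 bp), chr1:69542485-69542884 (16 bp) and chr4:89152634-89153033 (33 bp). Their nearest CTCF peaks lay 1.19, 14.2, 4.77, 7.3 and 38.8 kb away, in the same order. The first 2 had no other LDB1 peak within 25 kb, and the others had one within 4 kb.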

How the data were processed

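ChIP-seq was done by the authors on sublines of G1E-ER4 cells. The labels describe 65 samples in 29 groups, and the 9 deposited peak sets used here cover 22 of them. The other 43 samples were not analysed here. The deposited sets list peak positions in bp (chromosome, start and end, all 400 bp wide) with the replicates of a group combined by the authors. The submitters' processing notes name build mm9 and Bowtie2, deepTools 3.5.1 and MACS2 2.2.9.1. The peak threshold and the consensus rule are not given in the sources used here.

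Peaks counted as shared with at least 1 bp in common, in Python 3.11.15 with scipy 1.17.1. Overlaps were checked with simulated peaks and against bedtools 2.31.1. Shares have Wilson 95% intervals, and odds ratios have Woolf 95% intervals. P-values were adjusted by the Benjamini-Hochberg method across 33 two-sided Fisher's exact tests, 10 planned and 23 not planned, with a threshold of 0.05. Of these, 2 tests on RAD21 at neighbouring LDB1 peaks used the RAD21 set that chose the sites and are not reported. The distances are between peak centres. The named regions were the 5 chains with the most joint sites, with ties given to the shorter span. Also named were the 5 sites with the closest centres among those in all 4 other sets, without chromosome 18 and the first 3.1 Mb of chromosome 9. Sites at the edges of the rule are given by their values, and erythroid genes planned for naming could not be placed. The sites and comparisons were chosen with earlier results of these data known. Alternatives were other overlap rules, chromosomes, distances and definitions of absence. No sequence, gene or promoter of build mm9 was used here, so the planned GATA motif and gene start results were not run.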

Additional observations from a re-analysis of the deposited data

How the results depend on the processing

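The count of joint sites with RAD21 after SMC3 degradation was 0 in each of its 6 alternatives and, with 24 peaks in that set, could hardly move. Of the 89 alternative values for the 11 other results, 83 left the result as reported (an odds ratio with its direction and call, or a count that moved by no more than 1.5 times). Over the 7 alternatives counted for it, the number of joint sites ranged from 1000 with no CTCF or YY1 peak within 1 kb to 1406. Requiring RAD21 in both sublines left 112 joint sites, a fall far beyond 1.5 times. That count was not among the 89 values. The odds ratio of being kept after LDB1 degradation, joint sites against LDB1 alone, ranged from 5.03 to 13.1, and after SMC3 degradation from 1.74 to 4.98. Both highest values came from requiring RAD21 in both sublines, which filtered the joint sites but not the LDB1 alone peaks. With RAD21 required in both sublines, joint sites against sites with YY1 had odds ratios of 0.597 for LDB1 kept after LDB1 degradation and 0.355 for LDB1 found in untreated SMC3-AID cells, neither past the threshold, and of 1.26 for LDB1 kept after SMC3 degradation, a change of direction. In the same setting the odds ratio of CTCF within 10 kb against LDB1 alone was 1.19, also a change of direction. Fewer sites are compared there, 112 joint sites against 1369. For CTCF within 5 kb it was 0.973. Without peaks that had another LDB1 peak within 25 kb, chosen after seeing the data, the odds ratio of joint sites against sites with YY1 after SMC3 degradation was 0.676. With joint sites limited to the 1270 whose RAD21 peaks also lacked CTCF and YY1, likewise chosen after seeing the data, the 11 other results kept their direction and call. No paired analysis was possible because each set combines its replicates, and for the same reason no replicate could be left out. Depth is unknown for all sets.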

Other observations

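The joint sites were spread over all 20 chromosomes used. Their share of the LDB1 peaks of a chromosome ranged from 8.99% on chromosome 4 (55 of 612) to 18.5% on chromosome 16 (72 of 389). The share kept after LDB1 degradation ranged from 6.25% on chromosome 19 (3 of 48) to 25.5% on chromosome 4 (14 of 55). After SMC3 degradation, LDB1 was kept more often at joint sites than at LDB1 alone peaks on 18 of 20 chromosomes, and less often than at sites with YY1 on 14 of 20. Outside these chromosomes, 0 of 12 LDB1 peaks met the rule.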
